A study of Homo sapiens with 24 samples.

Results

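The Polycomb complex genes described here were 10 genes chosen by name as core parts of the Polycomb repressive complexes. They were EZH1, EZH2, EED and SUZ12 of Polycomb repressive complex 2 (PRC2), and RING1, RNF2, BMI1, PCGF2, CBX2 and CBX7 of Polycomb repressive complex 1 (PRC1). All 10 had a promoter region with H3K4me3 and an adjusted p-value, out of 20020 protein-coding genes, of which 15085 had such a region and 14765 a tested one.

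The study profiled histone marks in EndoC-βH3 cells, a beta cell line derived from human fetal pancreas and immortalized with hTERT and with Large-T of SV40, a viral protein that blocks p53 and Rb. All samples carry CreER and the genotype is given as WT. The 4 non-senescent samples are labelled control. The 4 senescent samples received 4-hydroxy tamoxifen (4-OHT) over 3 weeks, which activates CreER and so removes both immortalizing genes. The labels give the dose as 1 mM, whereas the methods of the study give it in micromolar, and no vehicle is named for the controls. Each sample held 500000 cells, and nothing says whether the samples of a group came from separate cultures. The senescent samples are thus 1 line under 1 inducer. Loss of the immortalizing genes, the agent itself and the senescent state cannot be told apart in this design.

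PRC2 places the methyl marks of H3K27me3, a histone mark of silenced genes, through EZH2 or EZH1, with EED and SUZ12 as the other core subunits. PRC1 places ubiquitin on histone H2A through RING1 or RNF2, paired with a PCGF protein such as BMI1 or PCGF2, and its canonical form reads H3K27me3 through a CBX protein. In many cell types these complexes silence the CDKN2A locus, which encodes the senescence regulator p16. The mark measured here, H3K4me3, lies on the promoters of active genes, so the values describe the promoters of the Polycomb genes and not the amount or activity of their proteins.

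For H3K4me3 the authors deposited 1 table of regions with the mean normalized count over the samples, called mean signal here, and their own estimates of the log2 fold change with its standard error (SE). Values of single samples were not used here, so the spread over samples enters only through the SE, and the overlap of the groups and the depth of each sample are unknown. A change in the share of cells that carry the mark and a change in the amount per cell cannot be told apart. The header does not say which group is the numerator of the fold change. It was read as senescent over non-senescent because 82 of the 92 tested genes in the cell cycle list of the study lay below 0, with a median of −0.34; none of the 10 Polycomb genes is in that list. The value of a gene was that of its region of highest mean signal within 2 kb of any annotated start site, called the strongest region. The main start site is that of the canonical transcript in the annotation. A promoter was called lowered or raised at an adjusted p-value under 0.05 with a fold change over 1.5. Beta cell markers (INS, IAPP, PDX1, NKX6-1 and SLC30A8) had 7.56 to 25.2 counts per kb in their strongest regions. The 8 listed markers of other pancreatic cells with a region had 2.24 to 12.2. The median of all tested promoters was 19.3 counts per kb.

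The promoters of 9 of the 10 genes were found in the RefSeq promoter table, which holds the 250 bases before a start and 50 after it. CBX2 is named only. Words that fit E2F binding (TTTCCCGC, TTTCGCGC, TTTGCCGC or TTTGGCGC on either strand) were searched because E2F factors bind Rb and drive cell cycle genes. EZH1, EZH2 and SUZ12 held a word, in 3 of the 11 promoters listed for the 9 genes, against 3.31% of 35116 promoters of the same length. Their sequences are shown for the position of the word, those of BMI1 and RNF2 for the contrast between a promoter with no H3K4me3 region over it and one covered by the strongest region, and that of PCGF6 because it was the one Polycomb promoter called. All are from GRCh38.p14, 5′ to 3′ on the strand of the gene, with the E2F word in capitals.
EZH1 (chr17:42744991-42745290, minus strand): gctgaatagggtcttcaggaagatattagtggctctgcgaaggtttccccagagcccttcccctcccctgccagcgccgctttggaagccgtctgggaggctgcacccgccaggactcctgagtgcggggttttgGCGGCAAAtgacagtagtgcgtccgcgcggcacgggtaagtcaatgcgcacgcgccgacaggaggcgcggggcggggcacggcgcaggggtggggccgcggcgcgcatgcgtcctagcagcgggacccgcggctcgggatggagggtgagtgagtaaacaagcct
EZH2 (chr7:148884242-148884541, minus strand): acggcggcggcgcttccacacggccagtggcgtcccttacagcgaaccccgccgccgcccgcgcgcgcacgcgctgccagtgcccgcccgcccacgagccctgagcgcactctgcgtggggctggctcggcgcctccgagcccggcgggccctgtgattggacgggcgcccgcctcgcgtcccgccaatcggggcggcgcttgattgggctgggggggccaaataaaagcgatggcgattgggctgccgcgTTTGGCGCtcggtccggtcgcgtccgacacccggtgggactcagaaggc
SUZ12 (chr17:31936757-31937056, plus strand): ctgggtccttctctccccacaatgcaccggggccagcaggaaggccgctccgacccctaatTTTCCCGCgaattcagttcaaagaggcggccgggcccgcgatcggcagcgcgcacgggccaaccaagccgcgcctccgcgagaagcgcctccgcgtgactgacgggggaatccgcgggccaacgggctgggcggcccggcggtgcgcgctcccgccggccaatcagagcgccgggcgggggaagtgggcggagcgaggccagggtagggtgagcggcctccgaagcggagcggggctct
BMI1 (chr10:22321706-22322005, plus strand): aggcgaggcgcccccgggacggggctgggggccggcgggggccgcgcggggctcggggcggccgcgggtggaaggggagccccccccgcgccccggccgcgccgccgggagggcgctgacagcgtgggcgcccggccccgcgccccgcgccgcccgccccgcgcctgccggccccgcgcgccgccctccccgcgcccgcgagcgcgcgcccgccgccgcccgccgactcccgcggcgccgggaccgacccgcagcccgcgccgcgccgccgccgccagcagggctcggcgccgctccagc
RNF2 (chr1:185045308-185045607, plus strand): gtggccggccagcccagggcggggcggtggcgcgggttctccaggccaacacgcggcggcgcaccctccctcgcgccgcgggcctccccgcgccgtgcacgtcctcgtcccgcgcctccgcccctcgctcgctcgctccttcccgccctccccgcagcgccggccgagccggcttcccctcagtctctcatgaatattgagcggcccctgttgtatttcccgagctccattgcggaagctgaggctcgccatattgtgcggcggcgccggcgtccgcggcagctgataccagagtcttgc
PCGF6 (chr10:103351091-103351390, minus strand): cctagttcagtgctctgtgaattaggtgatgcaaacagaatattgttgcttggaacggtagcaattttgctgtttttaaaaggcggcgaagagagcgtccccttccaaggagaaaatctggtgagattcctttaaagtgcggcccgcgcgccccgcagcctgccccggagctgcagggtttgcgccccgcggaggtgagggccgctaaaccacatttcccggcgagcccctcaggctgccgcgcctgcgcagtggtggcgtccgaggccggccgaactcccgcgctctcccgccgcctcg

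The E2F word of EZH1 is GCGGCAAA, the minus-strand form of TTTGCCGC, and its first base was at −115, counted from the start base as 0. That of EZH2, TTTGGCGC, began at position 1, behind 4 CCAAT boxes (CCAAT or ATTGG). That of SUZ12, TTTCCCGC, began at −189. The cell cycle words TTTGAA and TTCGAA, on either strand, were present in 1 of the 11 promoters, that of SUZ12, and in 16.4% of all promoters. A CCAAT box was found in 4 of the 11 promoters (of CBX7, EED, EZH2 and SUZ12) and in 34.6% of all promoters. Each match is a description of letters and not of a bound site. EZH2 and EED are also members of the Hallmark E2F target list that the study used.

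No Polycomb complex gene was called. At EED, BMI1 and RNF2 a change over 1.5-fold could be called, and at the other members only a larger one. Of the 10 genes, 0 were lowered, against 0.704% of all tested promoters, and 0 were raised, against 0.501%. In the authors' test, RNF2, CBX2 and PCGF2 had an unadjusted p-value under 0.05 with a lower value in senescent cells, 3 of 10 genes where the background was 7.08%. None was higher at that level, where the background was 4.78%. The estimates of 9 of the 10 lay below 0, and the median was −0.36 (log2), beside a median SE of 0.267. Among all tested promoters 56.1% lay below 0 and the median was −0.04. Among the 7383 promoters with at least the median signal, 48.3% lay below 0, and of the 4 members among them 3 did, with a median of −0.30.

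**Figure D1:**
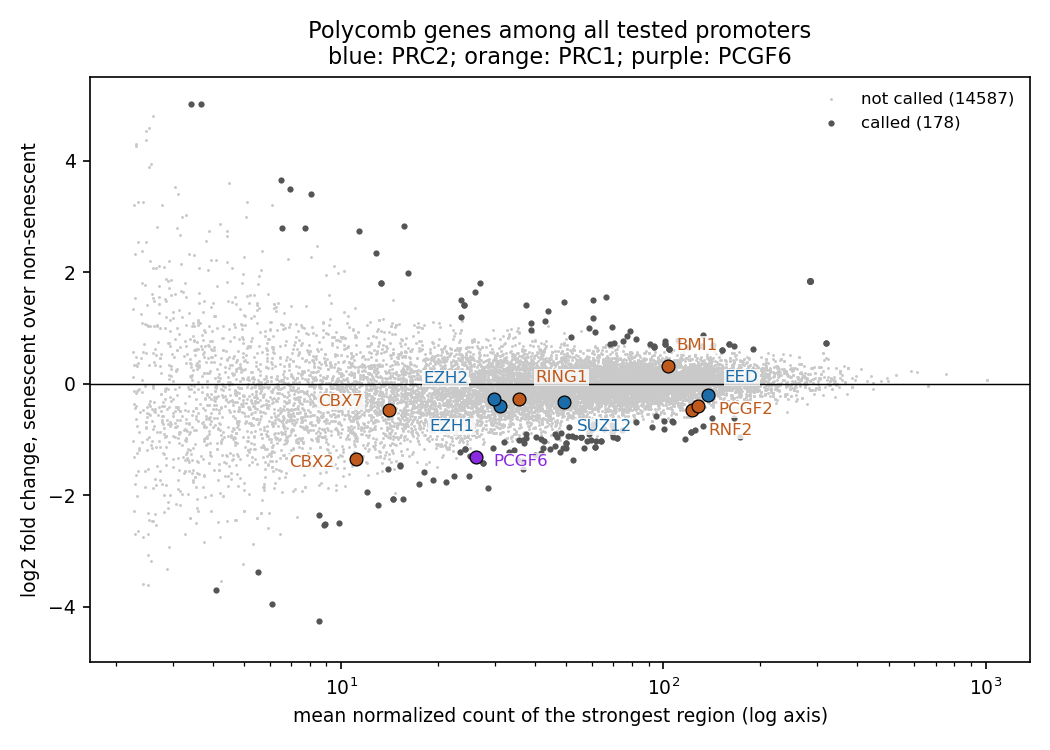
Authors' log2 fold change of H3K4me3 (vertical axis, senescent over non-senescent) against mean normalized count of the strongest region (horizontal log axis) for 14765 promoters, with 104 lowered and 74 raised promoters in dark grey. Of the 10 Polycomb complex genes, 9 lie below 0 and BMI1 above it at 0.31, and all 10 lie among the promoters not called; PCGF6 is the called gene in purple.

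The 4 PRC2 genes had estimates between −0.40 and −0.20, and none was called. EZH1, an enzyme subunit found also in cells that do not divide, had 1 region, at chr17:42743808-42745721, covering its main start site and an exon with untranslated sequence (UTR). Its mean signal was 31.2, or 16.3 counts per kb, and its log2 fold change −0.40 (SE 0.28, 95% interval −0.95 to 0.14, adjusted p = 0.559). EZH2, the enzyme subunit typical of dividing cells, had its strongest region in an intron at chr7:148881433-148883797, beginning 494 bp after the main start site. There the mean signal was 29.8, or 12.6 counts per kb, and the log2 fold change −0.29 (SE 0.29, −0.85 to 0.28, adjusted p = 0.718). No H3K4me3 region lay over the EZH2 promoter printed above, whereas 300 of the 300 bases of another annotated EZH2 promoter, at chr7:148883436-148883735, lay in the strongest region. A region of 500 bp upstream of EZH2 held a mean signal of 3.37 and had an estimate of 1.16 (SE 0.91, adjusted p = 0.613).

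EED, the subunit that binds H3K27me3 and stimulates the enzyme, had a mean signal of 137.8 over chr11:86243776-86247946, across its main start, or 33.0 counts per kb. Its log2 fold change was −0.20 (SE 0.15, −0.50 to 0.10, adjusted p = 0.611). This was the one strongest region of the 10 whose 95% interval lay wholly within a 1.5-fold change in either direction. EED had 2 weaker regions near other start sites, with estimates of 0.18 (SE 0.36) and 1.11 (SE 0.70). SUZ12, a scaffold of PRC2, had its strongest region in an intron at chr17:31937736-31939196, beginning 729 bp after its start, with a mean signal of 49.2, or 33.7 counts per kb. The log2 fold change there was −0.33 (SE 0.26, −0.83 to 0.17, adjusted p = 0.608). The weaker SUZ12 region covers the start site, and its estimate was −0.04 (SE 0.37, adjusted p = 0.977). Only 39.0% of the 24-base words of the strongest SUZ12 region occur once in the genome, the least of the 20 member regions, so reads there can belong to a copy and the value is uncertain. In the weaker SUZ12 region the share was 52.3%, so the value at the start site is uncertain for the same reason.

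**Figure D2:**
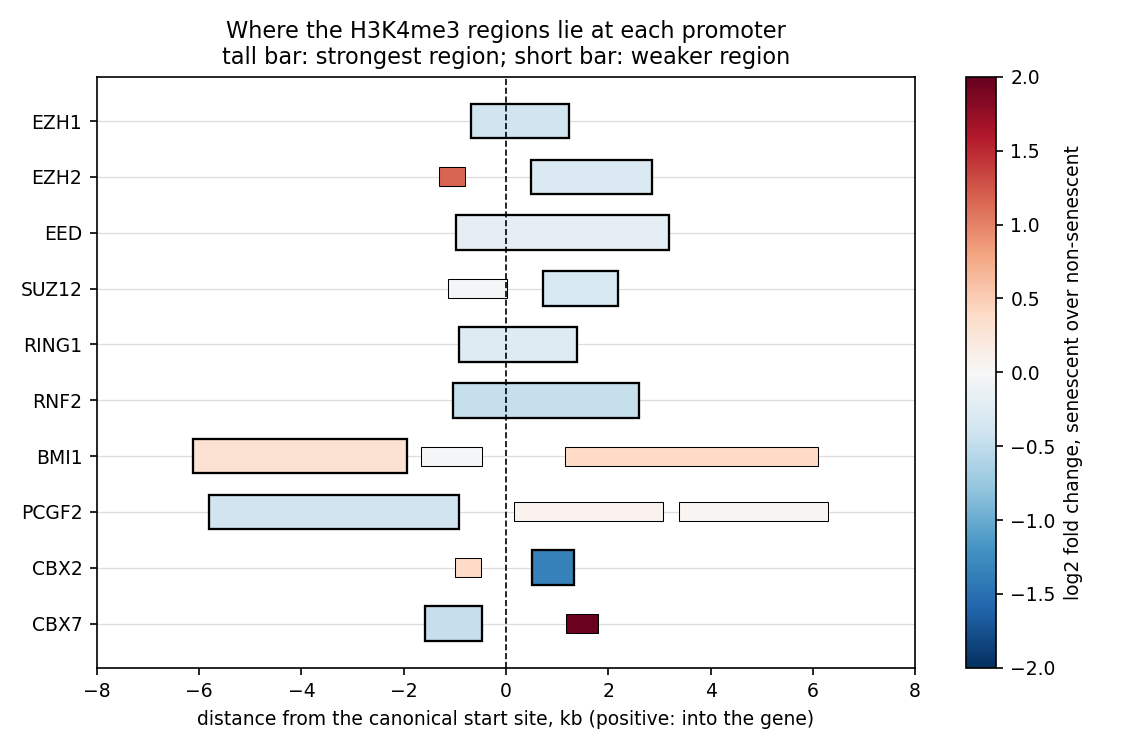
H3K4me3 regions at each Polycomb complex gene by distance from the main start site in kb (positive into the gene), coloured by the authors' log2 fold change (senescent over non-senescent); tall bars are strongest regions and short bars weaker ones. The start lies inside the strongest region for EZH1, EED, RING1 and RNF2, 4 of 10 genes; the 2 weaker EED regions lie beyond the axis.

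The main start site lay inside the strongest region for 4 of the 10 genes and inside any region for 5, SUZ12 included. Over all tested promoters these shares were 65.3% and 71.7%. The GC content of the promoters printed without a region was 74.7% for EZH2 and 91.0% for BMI1. The printed BMI1 promoter is not the one at the main start, which had 73.3% GC and no region either. CBX7 also had no region over its promoter, at 77.7% GC. The other EZH2 promoter, at 77.0% GC, was covered over 300 of 300 bases. So were RNF2, at 73.0%, and RING1, at 74.3%, at a GC content like that of the printed EZH2 promoter. The promoters of EED, PCGF2 and EZH1, at 52.3%, 54.7% and 67.0% GC, were also covered over 300 of 300 bases. That of SUZ12, at 73.0%, was covered over 274. Whether coverage goes with GC content was not tested. Across all tested promoters, log2 fold change and GC content of the region went in opposite directions (Spearman's rho −0.346, a description across promoters of the same 8 samples).

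RING1 and RNF2 encode the alternative ubiquitin ligases of PRC1. RING1 had 1 region at chr6:33207582-33209897, with a mean signal of 35.6, or 15.4 counts per kb, and a log2 fold change of −0.27 (SE 0.29, −0.83 to 0.30, adjusted p = 0.743). RNF2 had 1 region at chr1:185044520-185048150, over its start, with a mean signal of 122.4, or 33.7 counts per kb. Its log2 fold change was −0.47 (SE 0.15, −0.77 to −0.18), 0.721 of the non-senescent level, with an adjusted p-value of 0.0811 and an unadjusted one of 0.00169. RNF2 had the smallest p-value of the 10 genes. When the median change of all tested regions was subtracted, its adjusted p was 0.0341, with a log2 value of −0.55 that was still short of a 1.5-fold change (0.585). When the median of regions of like GC content was subtracted instead, RNF2 was at −0.46 (adjusted p = 0.128), and with like signal and GC content at −0.49 (adjusted p = 0.103).

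BMI1 and PCGF2 encode PCGF partners of the ligases. BMI1 was the one member with an estimate above 0. Its strongest region, at chr10:22314973-22319168 with 24.6 counts per kb, ends 1931 bp upstream of the main BMI1 start and holds the starts of COMMD3 and of the readthrough gene COMMD3-BMI1, so it is shared and its value is uncertain for BMI1. The log2 fold change there was 0.31 (SE 0.16, −0.01 to 0.63, adjusted p = 0.394). The region within BMI1 itself, at chr10:22322250-22327195 with 20.3 counts per kb, gave 0.39 (SE 0.17, 0.06 to 0.73, adjusted p = 0.255). Both of these regions were above 0, and the smallest, nearest to the main start, gave −0.04 (SE 0.38, adjusted p = 0.981).

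PCGF2 had its strongest region at chr17:38749264-38754146, with 26.2 counts per kb. This region ends 928 bp upstream of the main PCGF2 start. It is shared, since it holds the start of the proteasome gene PSMB3 as well as 1 other annotated PCGF2 start. The log2 fold change there was −0.39 (SE 0.19, −0.76 to −0.03, adjusted p = 0.329). The region just inside the gene, beginning 153 bp after the main start, gave 0.09 (SE 0.29, adjusted p = 0.929), and the next one gave 0.03 (SE 0.24, adjusted p = 0.971). Of the 3 PCGF2 regions, the shared one was the one below 0. PCGF2 is also in the p16-associated and CellAge senescence lists that the study used. The first holds the genes whose RNA correlated most with that of p16 across beta cells. RING1 is in the longer p16 list of 500 genes.

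CBX2 and CBX7 encode chromodomain readers of H3K27me3. CBX2 had the lowest estimate of the 10, −1.35 (SE 0.50, −2.32 to −0.38), or 0.393 of the non-senescent level, at chr17:79778658-79779482, which overlaps its coding exons and begins 510 bp after the start. With an unadjusted p-value of 0.00659 the adjusted p was 0.155. The region held a mean signal of only 11.1, or 13.5 counts per kb, and at its SE the smallest callable fold was 3.27. A weaker region upstream of the start, with a mean signal of 3.41, gave 0.40 (SE 1.08, adjusted p = 0.914). CBX7 had its strongest region 469 bp upstream of its start, at chr22:39153149-39154269, with a mean signal of 14.1, or 12.6 counts per kb, and a log2 fold change of −0.47 (SE 0.47, −1.40 to 0.45, adjusted p = 0.713). Its weaker region, in an intron with a mean signal of 5.69, gave 1.98 (SE 1.00, 0.02 to 3.94, adjusted p = 0.365).

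**Figure D3:**
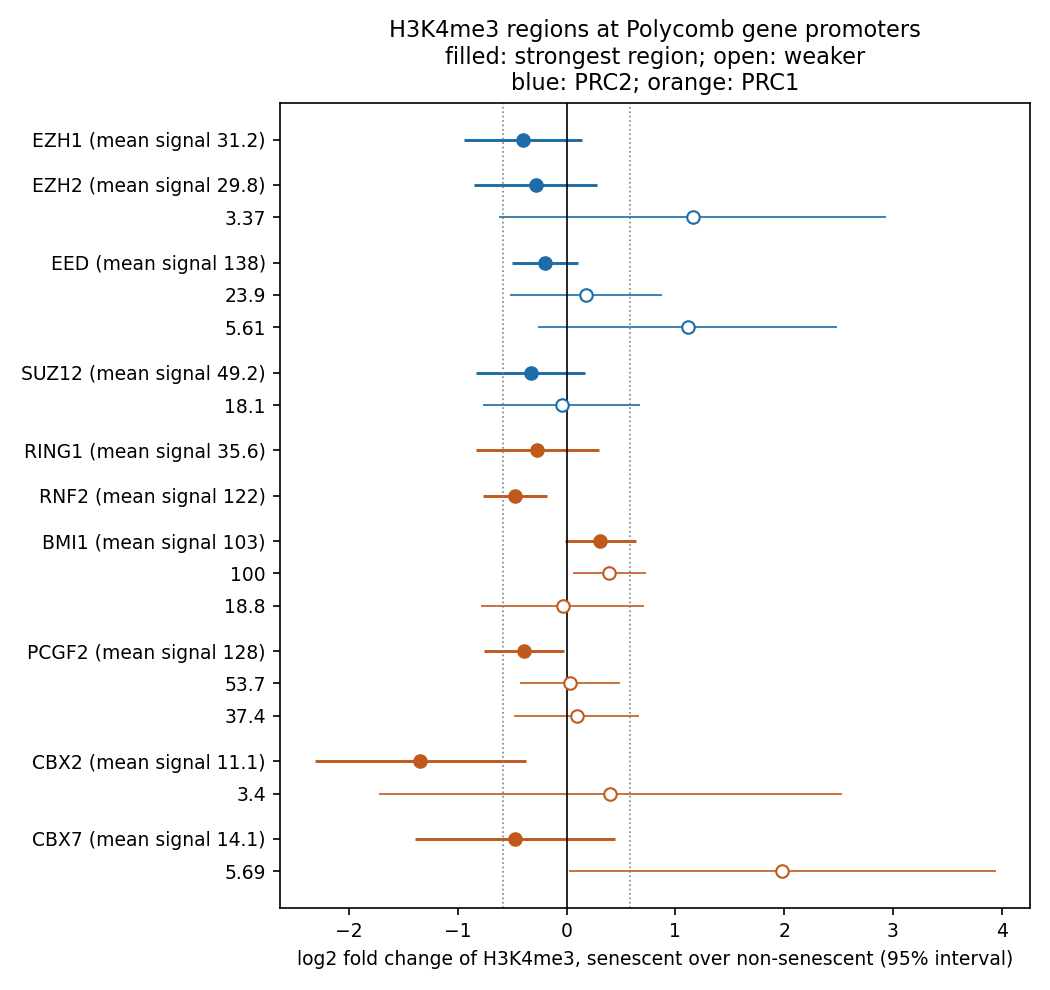
Authors' log2 fold change of H3K4me3 (senescent over non-senescent) with 95% intervals at the 20 promoter regions of the 10 genes; filled points are strongest regions, open points weaker ones, labels give mean signal, and dotted lines mark a 1.5-fold change. The strongest regions run from −1.35 at CBX2 to 0.31 at BMI1, and 3 of their 10 intervals lie clear of 0.

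In order of signal per kb the strongest regions ran RNF2 and SUZ12 (both 33.7), EED (33.0), PCGF2 (26.2), BMI1 (24.6), EZH1 (16.3), RING1 (15.4), CBX2 (13.5), and EZH2 and CBX7 (both 12.6). No spread over samples is known for these levels, so neighbours in the order cannot be separated. Of the 10 weaker regions 2 lay below 0, against 9 of the 10 strongest, a contrast that was not tested. The share below 0 among weaker regions of all genes was not computed, so the contrast cannot be called particular to these genes. The median log2 fold change was 0.08 over all tested regions and −0.04 over the strongest regions of all tested promoters. Several weaker regions had little signal, such as 3.37 at EZH2 (SE 0.91) and 3.41 at CBX2 (SE 1.08).

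Paralogs within a complex were compared by the difference of their estimates at the strongest region, with intervals that treat the errors as independent and with no test. EZH1 minus EZH2 was −0.12 (−0.90 to 0.67) and RING1 minus RNF2 was 0.20 (−0.43 to 0.84), so neither pair was separated. CBX2 minus CBX7 was −0.87 (−2.21 to 0.47), also with an interval that included 0. BMI1 minus PCGF2 was 0.71 (0.22 to 1.20), but both of those regions are shared with neighbours. At the regions nearest any start, which for BMI1 is the one within the gene, the difference was 0.79 (0.29 to 1.29). At the regions nearest to their main starts it was −0.13, with an interval of −1.08 to 0.82 that included 0. In signal per kb RNF2 stood 2.19 times above RING1 and EZH1 1.29 times above EZH2.

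Among 34 other Polycomb genes, in 4 groups, the last of genes that oppose Polycomb, 33 had a region, EPOP being the exception. Of the 33, 1 was lowered and 0 were raised, where the shares of all tested promoters were 0.704% and 0.501%. The lowered gene was PCGF6, the PCGF partner of a variant PRC1 with MGA and E2F6. Its strongest region covered the start, at chr10:103349936-103351761, with a mean signal of 26.3, or 14.4 counts per kb. Of the 24-base words there, 71.5% occur once in the genome. The log2 fold change was −1.32 (SE 0.32, −1.96 to −0.69), 0.399 of the non-senescent level, with an adjusted p of 0.0112. The call was lost when the median change of regions of like GC content was subtracted (−1.13, adjusted p = 0.0606).

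The 12 variant PRC1 genes had a median of −0.15, with 10 below 0, where 56.1% of all tested promoters lay below 0. They ran from PCGF6 to E2F6, a repressive E2F, at 0.22 (adjusted p = 0.862). The 8 canonical PRC1 genes had a median of 0.06, with 3 below 0, from SCML2 at −0.39 (adjusted p = 0.617) to the chromodomain gene CBX6 at 0.83 (SE 0.30, adjusted p = 0.152). At the CBX6 region nearest its start the estimate was 0.31 (SE 0.34, adjusted p = 0.742). Of the PRC2 accessory genes 7 were tested, with a median of −0.09, from PHF19, which helps bring PRC2 to chromatin, at −0.46 (adjusted p = 0.469) to MTF2, of the same family, at 0.19 (adjusted p = 0.713). The 6 genes grouped as opposing Polycomb had a median of −0.01. They ran from the H2A deubiquitinase gene BAP1 at −0.47 (adjusted p = 0.472) to the H3K27 demethylase gene KDM6A at 0.25 (adjusted p = 0.774). At an unadjusted p-value under 0.05, 2 of the 33 were lower (PCGF6 and L3MBTL2) and 1 was higher (CBX6), counts no larger than the 7.08% and 4.78% of all tested promoters give.

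**Figure D4:**
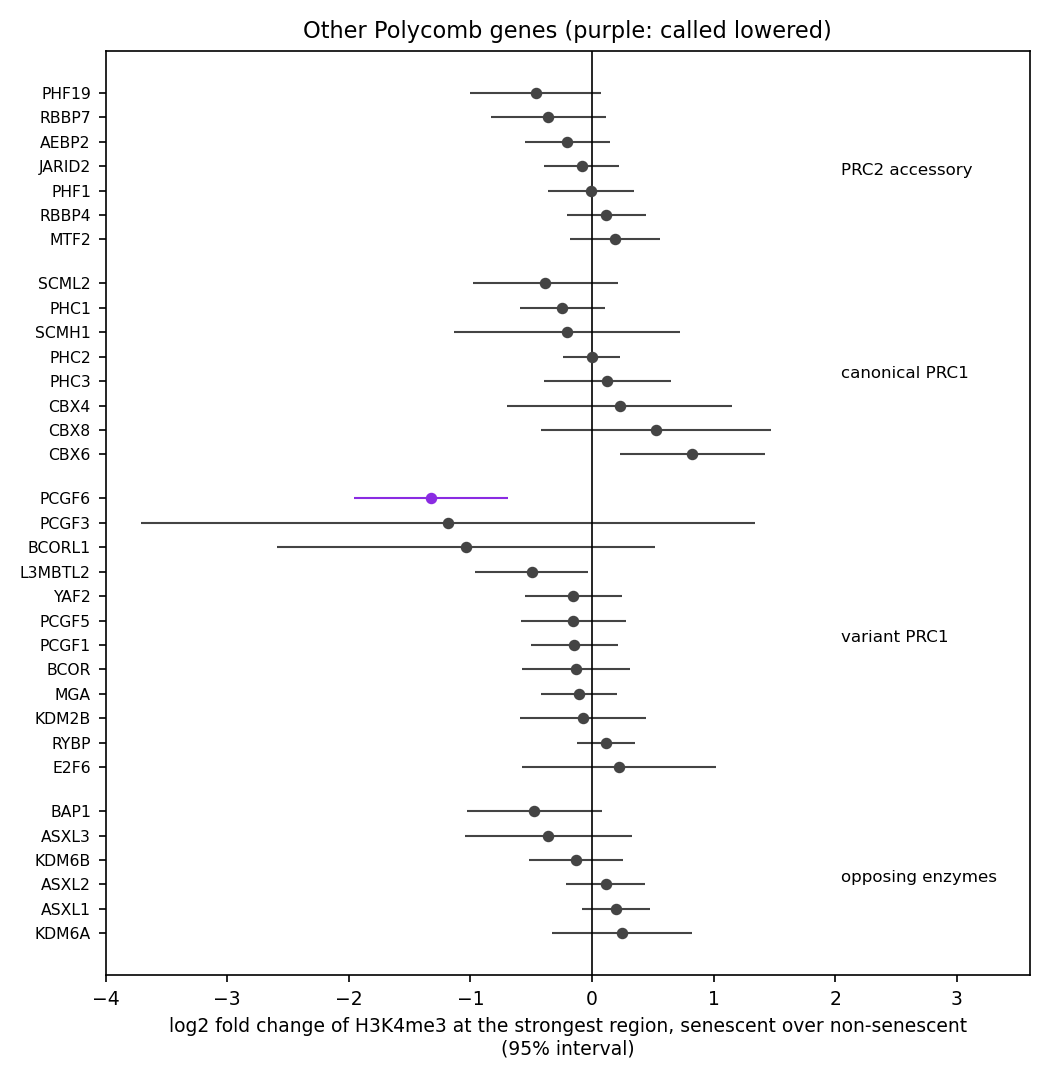
Authors' log2 fold change of H3K4me3 (senescent over non-senescent, 95% intervals) at the strongest region of 33 other Polycomb genes in 4 groups. PCGF6, in purple at −1.32, is the one called gene, and CBX6 has the highest estimate at 0.83.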

How the data were processed

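MINT-ChIP, in which barcoded samples are pooled before the antibody step, gave H3K4me3 in 4 non-senescent and 4 senescent EndoC-βH3 samples. The submitters' processing notes name bcl2fastq, Bowtie, SAMtools, HOMER, SICER, DESeq2 and deepTools, with build hg38. How peaks were merged and reads counted is not given in the sources used here.

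The deposited table holds 97545 regions with mean signal (mean of normalized counts over the samples), the authors' log2 fold change and its SE, a Wald score and p-values, as the authors' DESeq2 comparison gave them. The Wald score of each region was the deposited ratio of log2 fold change to SE. Adjusted p-values were deposited for 72959 regions and cover all of them. These comparison columns were used because no values of single samples were used here.

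Regions were assigned to GENCODE release 44 start sites of protein-coding genes by symbol, within 2 kb. Intervals are 95% normal intervals, unadjusted. The smallest callable change is the larger of the fold minimum and 3.445 SE, the smallest Wald score that reached an adjusted p of 0.05. The members and lists were chosen with earlier results of these data known. All 10 members are named. Of the 34 other genes those called, and the highest and lowest of each group, are named; L3MBTL2 was added after its value was seen. Likeness between genes was not computed from 1 contrast. The counting of calls was tested on simulated data, with changes placed only at promoters with an SE below the median. It therefore does not cover members with a larger SE. H3K27me3 and H3K9me3 samples were not analysed here. Alternatives covered start sites, window, thresholds, signal and GC content. Python 3.11.15 with pandas 2.3.3, numpy 2.4.6, scipy 1.17.1, pysam 0.24.0 and matplotlib 3.10.9 was used, with samtools 1.23.1.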

Additional observations from a re-analysis of the deposited data

How the results depend on the processing

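No paired analysis was possible because the deposited table gives 1 contrast and no values of single samples, and for the same reason no sample could be left out. Over 12 alternatives no member was called except by an unadjusted p-value under 0.05 with no minimum fold, which gave 3 lowered members, 2 lowered other Polycomb genes and 1 raised. That threshold called 1046 promoters lowered and 706 raised; an adjusted p under 0.1 called 202 lowered, and the subtraction of the median of all tested regions 157 lowered and 51 raised. Subtracting the median of regions of like GC content, alone or with like signal, gave 65 lowered and 62 raised or 59 lowered and 65 raised, with 0 lowered other Polycomb genes in both cases; PCGF6 was then at −1.13 (adjusted p = 0.0606) or −1.15 (adjusted p = 0.0541). Restricted to promoters of at least the median signal, the other Polycomb genes had 0 lowered, since PCGF6 is below that signal. The median of the members ranged from −0.44 to −0.23. At the region nearest the main start, BMI1 was at −0.036 (SE 0.38), CBX2 at 0.40 (SE 1.08) and PCGF2 at 0.092 (SE 0.29). The CBX2 region there had a mean signal of only 3.41. At these regions BMI1 minus PCGF2 was −0.13 (−1.08 to 0.82) and CBX2 minus CBX7 0.87 (−1.44 to 3.19), and both intervals included 0. After GC subtraction BMI1 minus PCGF2 was 0.39 (−0.10 to 0.88), or 0.51 (0.02 to 1.00) with like signal also. EZH1 minus EZH2 was 0.11, or 0.022 with like signal also, and both intervals included 0. By GC content alone SUZ12 was at −0.76 and RING1 at −0.07. The paralog differences under alternatives were chosen after seeing the data. The cause of these changes was not tested. Signal limits the weak regions: at CBX2 only changes over 3.27-fold, and at CBX7 over 3.07-fold, could be called. The limit was 1.94-fold at EZH1, 1.98-fold at EZH2, 1.99-fold at RING1, 1.84-fold at SUZ12 and 1.57-fold at PCGF2. At EED, BMI1 and RNF2 it was 1.5-fold.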

Other observations

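Beyond 2 kb from a start site, 10 further H3K4me3 regions lay inside the members, 2 in EZH2, 7 in RNF2 and 1 in CBX7. An adjusted p-value was deposited for 6 of them, none of which was called. The other 4 (2 in EZH2 and 2 in RNF2) had only an unadjusted one. The CBX7 region, at chr22:39144522-39146543, had a mean signal of 14.8 and a log2 fold change of −1.002 (SE 0.50, 95% interval −1.97 to −0.03, adjusted p = 0.351). The 7 RNF2 regions had mean signals of 0.812 to 10.9. The strongest of them, at chr1:185066095-185067687, had a log2 fold change of −0.48 (SE 0.60, 95% interval −1.65 to 0.69, adjusted p = 0.784). The others lay on both sides of 0, from −1.51 (SE 0.83) to 3.06 (SE 3.2).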
